A study of Homo sapiens with 6 samples.

Results

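The transcriptome of U937 cells kept in the vehicle DMSO, the untreated state of the experiment, was described across genes in 3 of the 6 RNA-seq libraries of the study. They were chosen by the treatment label DMSO, and their columns in the deposited count table are the 3 control columns. The other 3 libraries came from U937 cells given ethacrynic acid in a study of compounds that trigger myeloid differentiation, and they enter here only through the scaling between libraries. All 3 control libraries are labelled as cell line U937 and cell type AML, with day 3 in the titles and an exposure of 2 days in the treatment note. The cells were grown in RPMI 1640 with serum, and no DMSO amount is given in the sources used here. U937 is a single human cell line derived from a histiocytic lymphoma, so the libraries describe 1 line rather than primary monocytes. No label states whether the 3 replicates were grown as independent cultures, so the SD of 3 libraries may be technical. With 1 group there is no contrast, and no test was made.

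Monocytes and neutrophils arise from a common progenitor in the bone marrow under the factors PU.1 (SPI1) and the C/EBP family. At the promyelocyte stage the progenitor makes the serine proteases of the azurophil granules, and later stages make secondary granule proteins or, in the monocyte branch, receptors such as CD14. U937 is known as a line halted early in this branch that matures further on treatment with retinoids, vitamin D or phorbol esters.

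The control libraries held 66907158, 68128543 and 68065154 counts, with 25720 to 26633 gene IDs above 0 in a library. Log2 levels correlated between libraries at a Pearson r of 0.9801 to 0.9803 across 19573 genes, which are not independent, and the common coefficient of variation was 18.96%. Levels are in CPM, counts per 1e6 of the TMM-scaled library size, and levels of different genes are compared only after division by the exon length, as CPM per kb. A gene is called detected at 1 CPM or more in every control library, and this held for 13531 of 61806 IDs (21.9%) and for 11580 of 19838 protein-coding genes (58.4%). The protein-coding median was 6.69 CPM and 1.37 CPM per kb, and the 90th percentile was 21.9 CPM per kb. A total of 3784 protein-coding genes (19.1%) had no count in any of the 3 libraries, which is written below as listed at 0. A count of 3, used as the floor, equals 0.0440 to 0.0448 CPM. Over 51 gene lists with 837 different genes, 596 genes were detected, and each count of detected genes below is to be set beside the 58.4% of all protein-coding genes.

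The 7 markers chosen for the myeloid identity of the line were all detected. CTSG, the gene of cathepsin G, had 2692, 2879 and 2348 CPM in control replicates 1, 2 and 3. PRTN3, the gene of proteinase 3, had 254, 220 and 220 CPM, and LYZ, the gene of lysozyme, had 180, 302 and 149 CPM. LYZ varied most of these genes, with control replicate 2 above the other two. Per length, CTSG stood at 1921 ± 196 CPM per kb (SD, n = 3) and in the 99.9th percentile of protein-coding genes. PRTN3 was at 202 ± 17.1, CEBPA at 123 ± 7.78, LYZ at 119 ± 45.8 and SPI1 at 67.3 ± 9.78 CPM per kb, and the libraries of CEBPA and LYZ overlapped. The integrin chains ITGAX (CD11c) and ITGAM (CD11b) were far lower, at 5.70 ± 0.78 and 4.67 ± 0.22 CPM per kb at percentiles 68.2 and 64.9, and their libraries overlapped too. Among the 7 markers, granule proteins and lineage factors thus lay at the top of the range and ITGAX and ITGAM in its middle. Myeloid genes outside the 7 spread more widely, with the integrin chain ITGB2 at 173 and MPO at 0.834 CPM per kb.

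Factors of the myeloid lineage were detected in 29 of 31 cases, beside 58.4% of all protein-coding genes, with a list median of 68.1 CPM. CEBPA, which drives granulocyte and monocyte commitment, had 347, 321 and 306 CPM, and GFI1, a repressor that favours the granulocytic branch, had 266, 299 and 355 CPM. MYB, a factor of immature progenitors, had 403, 474 and 477 CPM. Per length CEBPA led the list with no overlap to GFI1, whereas GFI1, MYB and LYL1 followed each other at 92.9, 82.2 and 72.8 CPM per kb with overlapping libraries. SPI1 had 158, 141 and 118 CPM, lowest in control replicate 3, and lay above CEBPB, at 47.5 CPM per kb, in every library. IRF8, which directs progenitors towards monocytes, had 162, 176 and 178 CPM, or 33.4 CPM per kb. KLF4, a monocyte factor downstream of PU.1, had 7.002, 9.18 and 6.65 CPM, and its mean of 2.08 CPM per kb was near the protein-coding median of 1.37.

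Members of the C/EBP family spanned the whole range of levels. CEBPG, a partner that lacks an activation domain, had 155, 153 and 151 CPM, and CEBPE, known for late granulocyte maturation, had 14.3, 14.5 and 12.8 CPM. CEBPD, an acute-phase member, had 0.0588, 0.0869 and 0.0557 CPM, close to the floor. CEBPA exceeded it 4001-fold per kb, with a range of 3056 to 4878, but the ratio and its range rest on a few counts of CEBPD. The other list member not detected was KLF2, at 1.12, 1.43 and 0.627 CPM. ZEB2 had 150, 190 and 239 CPM, highest in control replicate 3. The early response factor EGR1 had 3.75, 3.77 and 31.7 CPM, so control replicate 3 alone lies above the mean. The other early genes FOS (4.74, 5.08 and 7.66 CPM), JUN (26.4, 26.2 and 29.9 CPM) and IER2 (138, 124 and 155 CPM), looked up after these values were seen, were also highest in control replicate 3, by much smaller ratios.

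Among 20 factors of other lineages 10 were detected, near the 58.4% of all protein-coding genes. The list median was 0.129 CPM per kb against the protein-coding median of 1.37 CPM per kb. The B cell factor PAX5 had 6.47, 9.40 and 6.91 CPM, the T cell factor TCF7 had 6.74, 5.47 and 5.71 CPM, and the erythroid factor KLF1 had 3.49, 2.90 and 2.17 CPM. GATA1 was at or below 0.0588 CPM in each library, and its partners TAL1 and GFI1B were listed at 0. KLF1 was the highest of them per length at 1.77 CPM per kb, below the median of 10.4 CPM per kb over the myeloid factors.

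**Figure D1:**
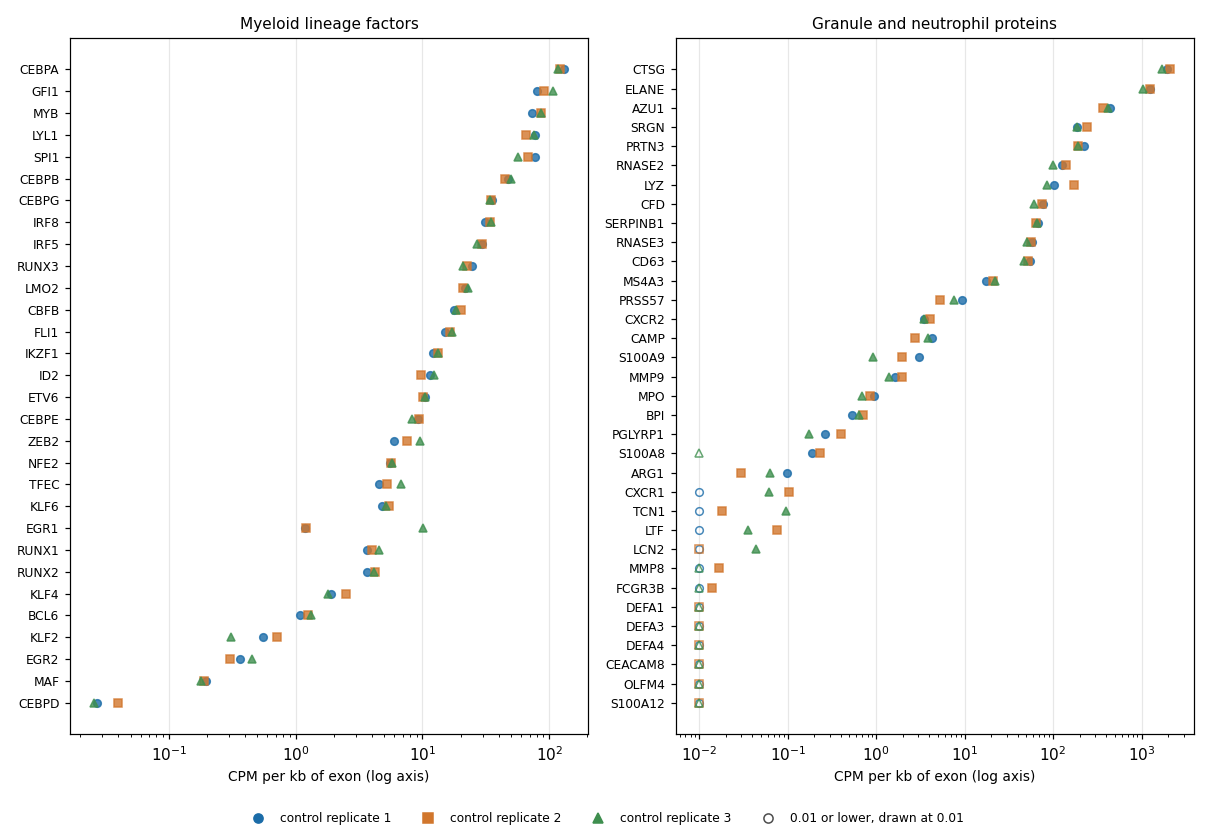
Levels of 30 myeloid lineage factors and of 34 granule and neutrophil genes in CPM per kb of exon on log axes, with 1 point for each of the 3 control libraries and open points for values of 0.01 or lower. CEBPA leads the factors and CTSG and ELANE the granule genes. CEBPD is the lowest factor, and DEFA1, DEFA3 and DEFA4 are listed at 0. Secondary granule and mature neutrophil genes range from 3.68 CPM per kb, for the receptor CXCR2, down to 0.

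Genes of the HOXA cluster encode homeodomain factors that progenitors use and switch off as they mature, and in leukemia they are often held on together with their cofactor MEIS1. The fusion PICALM-MLLT10, which U937 is known to carry, is among the lesions linked to high HOXA levels, though a table of gene counts cannot show a fusion. In the control libraries the cluster split by position. The 6 genes described here from HOXA2 to HOXA7 lay between 0.711 and 4.57 CPM per kb, and the 4 genes from HOXA9 to HOXA13 lay between 20.7 and 41.0 CPM per kb. HOXA10 (chr7:27170591-27180261, GRCh38) had 138, 143 and 175 CPM, HOXA9 had 94.6, 94.5 and 119 CPM, HOXA11 had 72.9, 66.2 and 90.4 CPM, and HOXA13 had 98.3, 104 and 113 CPM. All 4 were highest in control replicate 3. Per length HOXA10, HOXA9 and HOXA11 overlapped in neighbouring pairs, and HOXA13 lay below them at 20.7 ± 1.43 CPM per kb. HOXA9 exceeded HOXA7 by 31.0-fold per kb, with a range of 23.9 to 42.7, and HOXA10 exceeded HOXA5 by 8.96-fold, with a range of 7.09 to 11.1.

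Exons of HOXA9 and HOXA10 overlap the gene AC004080.3 on the same strand and the antisense gene HOXA10-AS, and exons of HOXA11 and HOXA13 overlap HOXA11-AS and HOTTIP. With the strand setting of the counting not given, reads of these partners cannot be told apart, so the levels of the 4 genes are uncertain. HOXA11-AS had 59.7, 60.7 and 72.7 CPM and HOTTIP, a noncoding transcript at the end of the cluster, had 9.002, 10.2 and 12.96 CPM, both looked up after their values were seen. MEIS1 had 99.7, 102 and 120 CPM and its relative PBX3 had 17.2, 22.8 and 19.9 CPM. PICALM was at 66.5, 72.8 and 70.5 CPM and MLLT10 at 20.5, 22.8 and 22.7 CPM. MECOM, a factor that marks another class of myeloid leukemia, had 0.603, 0.652 and 1.28 CPM and was not detected. In the other 3 clusters 0 of 10 HOXB, 4 of 9 HOXC and 0 of 9 HOXD genes were detected, and 7 of the HOXD genes were listed at 0. The HOXC genes detected were HOXC10, HOXC4, HOXC6 and HOXC5, and the first pair were at 7.62 and 7.29 CPM per kb.

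**Figure D2:**
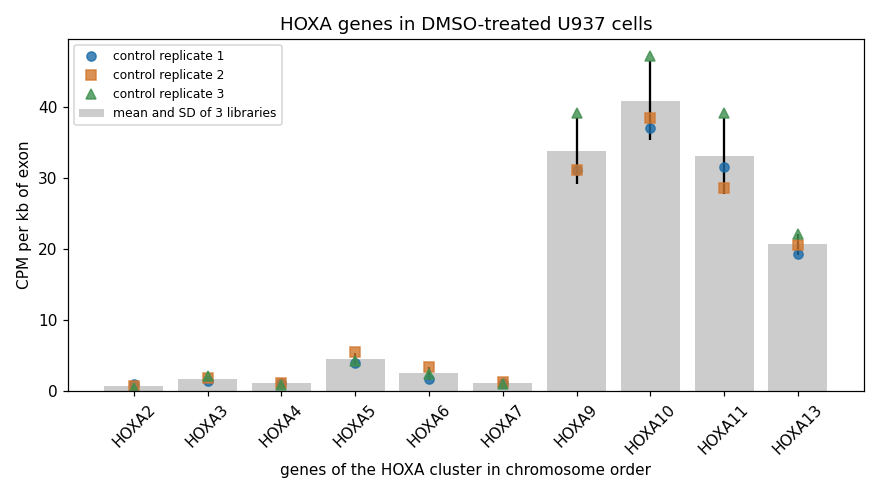
Levels of 10 HOXA genes in chromosome order in CPM per kb of exon, with bars for the mean of the 3 control libraries, lines for the SD and a point for each library. HOXA9 to HOXA13 stand between 20.7 and 41.0 CPM per kb and HOXA2 to HOXA7 at 4.57 or lower.

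Nuclear receptors, through which retinoids and vitamin D drive maturation of this line, were detected in 12 of 17 cases. RARA, the main retinoic acid receptor of myeloid cells, had 35.3, 35.1 and 32.2 CPM and its partner RXRA had 80.2, 81.1 and 67.2 CPM. VDR, the vitamin D receptor, had 33.1, 35.3 and 29.1 CPM. RARB, known as a retinoid target, had 0.309, 0.319 and 0.892 CPM, and RARA exceeded it 52.8-fold per kb, between 28.2 and 89.2 in the single libraries. PPARD led the list with 311, 285 and 265 CPM and was 17.5 times PPARG per kb, with a range of 15.2 to 20.2.

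Azurophil granule genes formed a very unequal set, with 15 of 18 detected and 3 listed at 0. After CTSG the next per length were ELANE, the neutrophil elastase gene, at 1189 ± 120 CPM per kb and AZU1, which encodes the protease-like protein azurocidin, at 408 ± 33.5 CPM per kb. CTSG, ELANE and AZU1 did not overlap in any library. ELANE had 1293, 1294 and 1079 CPM and AZU1 had 775, 660 and 745 CPM. AZU1, PRTN3, ELANE and CFD, the gene of the protease complement factor D, lie side by side between chr19:825097 and chr19:863630 (GRCh38), and CFD had 93.2, 91.6 and 75.3 CPM. Within this cluster ELANE was 5.89 times PRTN3 per kb, with a range of 5.47 to 6.55, and AZU1 was 2.02 times PRTN3, with a range of 1.92 to 2.18. These ratios held within narrow limits in all 3 libraries. CTSG itself (chr14:24573522-24576260) has the granzyme genes GZMH and GZMB as neighbours, and GZMB had 1.27, 1.56 and 1.76 CPM, so CTSG was 1774 times higher per kb, with a range of 1374 to 2186.

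The promoters of CTSG, AZU1 and PRTN3, which rank 1, 3 and 5 per kb in the granule list, are shown as examples chosen after their values were seen. Each is the RefSeq sequence of GRCh38.p14 from 250 bases before to 50 bases after the start of the gene, on the strand of the gene. CTSG is taken from chr14:24576201-24576500, minus strand, AZU1 from chr19:827587-827886, plus strand, and PRTN3 from chr19:840749-841048, plus strand. Capitals mark matches on either strand to GAGGAA, a core bound by PU.1, and to TTGCNNAA, a C/EBP-type motif.
CTSG: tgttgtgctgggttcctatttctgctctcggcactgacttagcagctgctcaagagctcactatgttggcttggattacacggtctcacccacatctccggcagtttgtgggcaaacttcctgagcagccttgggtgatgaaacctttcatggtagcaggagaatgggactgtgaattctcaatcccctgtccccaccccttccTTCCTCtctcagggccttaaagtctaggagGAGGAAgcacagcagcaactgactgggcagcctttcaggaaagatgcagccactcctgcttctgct
AZU1: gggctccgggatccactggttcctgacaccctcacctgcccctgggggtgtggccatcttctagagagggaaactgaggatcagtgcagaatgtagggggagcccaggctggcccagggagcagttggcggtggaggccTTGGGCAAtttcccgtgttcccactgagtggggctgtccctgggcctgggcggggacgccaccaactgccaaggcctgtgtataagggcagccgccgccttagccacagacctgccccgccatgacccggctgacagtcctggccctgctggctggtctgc
PRTN3: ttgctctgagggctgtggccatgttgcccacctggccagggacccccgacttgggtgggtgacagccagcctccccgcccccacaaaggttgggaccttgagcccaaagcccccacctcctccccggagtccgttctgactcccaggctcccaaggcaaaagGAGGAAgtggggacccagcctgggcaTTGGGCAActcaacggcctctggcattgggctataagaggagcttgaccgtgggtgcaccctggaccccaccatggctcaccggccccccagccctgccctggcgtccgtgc
CTSG holds 2 matches to GAGGAA, AZU1 holds 1 match to TTGCNNAA, and PRTN3 holds 1 of each. None of the 3 holds TGTGGT, a RUNX-type core searched on both strands in the same way. Of 2 further promoters searched, that of RNASE2 holds 1 match to TTGCNNAA and that of CEBPA none to any of the 3 motifs. Over 35116 promoters of the same length, 27.9% held GAGGAA, 10.5% held TTGCNNAA and 13.1% held TGTGGT, so a match is common and describes letters only.

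Other granule genes ranged from the level of PRTN3 to 0. MPO, the gene of myeloperoxidase, which neutrophil precursors make in bulk, had 3.37, 3.01 and 2.44 CPM. CTSG exceeded MPO 2305-fold per kb, with a range of 2051 to 2471, and ELANE exceeded it 1426-fold. BPI, which binds bacterial endotoxin, had 1.32, 1.80 and 1.60 CPM, and the defensins DEFA1, DEFA3 and DEFA4 were listed at 0. DEFA1 and DEFA3 are near-identical copies, and how the counting treated such reads is not given. RNASE2, an eosinophil-type ribonuclease also made by monocytes, had 94.3, 107 and 76.1 CPM and its copy RNASE3 had 41.7, 40.9 and 36.5 CPM. SRGN, the proteoglycan that packs granule proteases, had 226, 293 and 228 CPM, and SERPINB1, the inhibitor of elastase and cathepsin G inside the cell, had 207, 200 and 202 CPM.

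Secondary granule and mature neutrophil genes were detected in 3 of 16 cases, a share below the 58.4% of all protein-coding genes. These were the receptor CXCR2 with 11.3, 13.3 and 11.1 CPM, the cathelicidin gene CAMP with 3.19, 2.04 and 2.88 CPM, and MMP9 with 3.78, 4.61 and 3.26 CPM. S100A9, one of the most abundant proteins of blood monocytes and neutrophils, had 1.78, 1.14 and 0.530 CPM, and its partner S100A8 had 0.191, 0.232 and 0 CPM. S100A12, CEACAM8 and OLFM4 were listed at 0. Other S100 and annexin genes were detected in 10 of 10 cases, among them S100A11 with 185, 171 and 162 CPM and S100A4 with 155, 147 and 131 CPM. ANXA1 had 24.7, 20.3 and 9.63 CPM, lowest in control replicate 3.

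Of 33 myeloid surface antigens 24 were detected. CD4, which monocytes carry as well as helper T cells, led the list with 495, 478 and 461 CPM and 104 ± 3.68 CPM per kb, above every library of the next gene. Following it were SIRPA, which receives the CD47 signal, with 319, 305 and 282 CPM and the aminopeptidase gene ANPEP (CD13) with 299, 252 and 290 CPM, which overlapped per kb. CD33 had 90.4, 96.4 and 89.2 CPM, CLEC12A 93.7, 94.8 and 120 CPM and CD68 71.9, 76.8 and 69.4 CPM. The signalling adaptors FCER1G and TYROBP had 57.0, 56.2 and 44.3 CPM and 21.8, 20.3 and 16.6 CPM, with control replicate 3 lowest for both.

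Antigens of mature monocytes and macrophages were spread over the same list. MARCO, a scavenger receptor of macrophages, had 29.6, 19.1 and 27.4 CPM and, like CD68, lay above the protein-coding median per kb. CD14, the endotoxin co-receptor that defines blood monocytes, had 0.324, 0.261 and 0.111 CPM. CD86, a costimulatory ligand, had 0.206, 0.406 and 0.404 CPM, and the scavenger and mannose receptors CD163 and MRC1 each had 0, 0.0579 and 0 CPM. MSR1, another scavenger receptor, was listed at 0. Macrophage effector genes were detected in 10 of 18 cases, a share near the 58.4% of all protein-coding genes. GPNMB, a lysosomal glycoprotein of macrophages, had 586, 608 and 468 CPM, or 91.8 CPM per kb. LGALS1, a galectin, had 203, 165 and 150 CPM and CHI3L1 had 136, 139 and 104 CPM, whereas APOE had 3.12, 2.10 and 2.94 CPM and MMP12 was listed at 0. In bulk RNA a low level cannot be told apart as fewer cells that hold a transcript or less of it in each cell, here and for all genes below.

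Fc receptors, which bind antibody, were detected in 7 of 9 cases. FCER2 (CD23), the low-affinity IgE receptor, led with 159, 158 and 136 CPM and 61.6 CPM per kb, above every library of FCGRT at 22.6 CPM per kb. The activating IgG receptors FCGR2A and FCGR1A had 62.8, 60.0 and 64.5 CPM and 32.2, 29.2 and 28.1 CPM, and the inhibitory FCGR2B had 34.4, 30.7 and 32.9 CPM. FCGR2A, FCGR2B and FCGR2C are close copies, so the division of reads among them is uncertain. FCGR3A (CD16) and FCER1A, the IgE receptor of mast cells, were listed at 0.

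Integrin and adhesion genes were detected in 20 of 22 cases and leukocyte genes in 15 of 15. ITGB2, the chain shared by the CD11 integrins, had 1199, 1258 and 1078 CPM and was 37.1 times ITGAM per kb, with a range of 35.9 to 38.3. Among the chains that pair with it, ITGAL (CD11a) had 113, 101 and 111 CPM and was at 16.7 CPM per kb, above ITGAX and ITGAM. The fibronectin receptor chains ITGA5 and ITGA4 had 323, 323 and 339 CPM and 254, 326 and 332 CPM. PTPRC (CD45) had 184, 211 and 229 CPM, and the actin-bundling LCP1 had 1500, 1586 and 1393 CPM. Progenitor antigens were detected in 4 of 10 cases. CD93, a receptor of early myeloid cells and endothelium, had 771, 918 and 841 CPM, whereas CD34 had 0.0883, 0 and 0 CPM, KIT had 0.956, 0.724 and 1.78 CPM, and SPINK2 was listed at 0.

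Receptors for haematopoietic cytokines were detected in 20 of 24 cases. IL2RG, the chain shared by several interleukin receptors, led with 215, 185 and 208 CPM and 73.5 CPM per kb. IL6R had 155, 182 and 164 CPM and CSF3R, the G-CSF receptor, had 214, 181 and 215 CPM, at 25.9 and 24.1 CPM per kb with overlapping libraries. The GM-CSF receptor chains CSF2RA and CSF2RB had 32.4, 31.9 and 28.7 CPM and 26.6, 30.6 and 28.7 CPM. CSF1R, the M-CSF receptor on which macrophages depend, had 3.27, 3.24 and 1.56 CPM and was 46.2 times lower per kb than CSF3R, with a range of 34.1 to 84.2. FLT3, a progenitor receptor often mutated in AML, had 1.46, 1.07 and 2.09 CPM. LIFR had 0, 0.0579 and 0 CPM, and IL5RA was listed at 0.

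Interferon and TNF receptors were detected in 11 of 17 cases, TGF-beta family receptors in 8 of 8 and receptors of the IL-1 and IL-17 families in 6 of 9. TNFRSF1A, the main TNF receptor, had 163, 143 and 167 CPM and the interferon gamma receptor chains IFNGR1 and IFNGR2 had 54.5, 57.8 and 49.9 CPM and 58.9, 61.0 and 49.1 CPM. TGFBR1 had 171, 195 and 167 CPM and IL17RA had 103, 114 and 92.4 CPM. By contrast IL1R1, the signalling IL-1 receptor, had 0.162, 0.420 and 0.334 CPM, and the costimulatory receptor CD40 had 0.118, 0.0724 and 0.111 CPM. The B cell receptors TNFRSF17 and TNFRSF13B were listed at 0, whereas TNFRSF13C, in the same list, was detected at 4.36 CPM per kb.

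Chemoattractant receptors were detected in 9 of 21 cases, beside 58.4% of all protein-coding genes. With detection in 2 of the 3 libraries the count was 12 of 21, beside 11873 of 19838 protein-coding genes. The count thus depends on the rule and says nothing particular of that list. CXCR4, the receptor that keeps progenitors in the marrow, led with 109, 124 and 116 CPM and 52.3 CPM per kb. LTB4R, a leukotriene receptor, had 85.6, 82.0 and 73.4 CPM, though its exons overlap LTB4R2 on the same strand, and PTAFR, the receptor of platelet-activating factor, had 54.0, 58.4 and 38.4 CPM. CX3CR1, the receptor of patrolling monocytes, had 12.2, 13.3 and 12.5 CPM. CCR2, through which blood monocytes answer CCL2, had 0.456, 0.492 and 0.989 CPM, and the formyl peptide receptor FPR1 had 0.206, 0.275 and 0.585 CPM. CCR6 and CXCR5 were listed at 0.

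**Figure D3:**
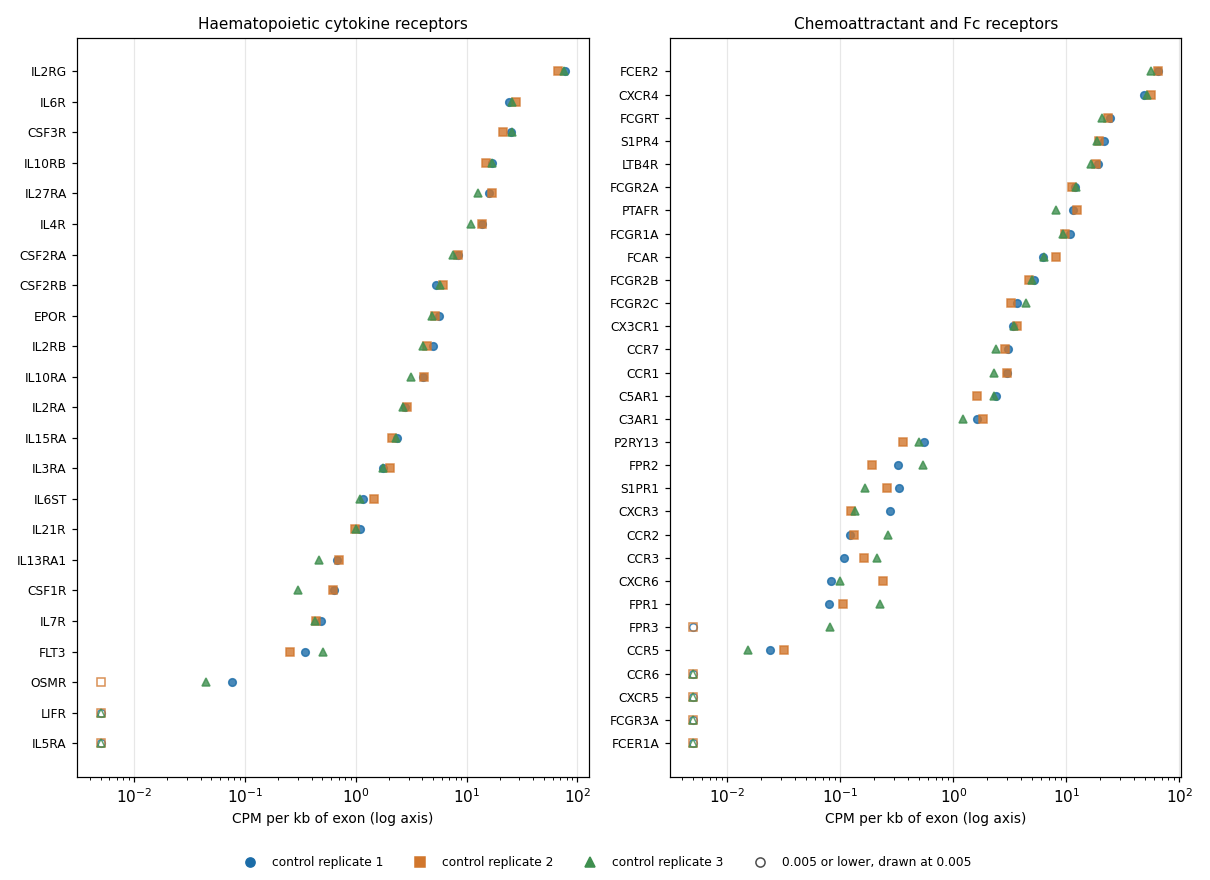
Levels of 23 haematopoietic cytokine receptors (left) and of 30 chemoattractant and Fc receptors (right) in CPM per kb of exon on log axes, with 1 point for each control library and open points for values of 0.005 or lower. IL2RG, FCER2 and CXCR4 lead, CSF1R and FLT3 lie below 1 CPM per kb, and IL5RA, CCR6, CXCR5, FCGR3A and FCER1A are listed at 0.

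Toll-like receptors and adaptors were detected in 9 of 17 cases, near the 58.4% of all protein-coding genes, and inflammasome and cytosolic sensors in 14 of 15. TLR4, the endotoxin receptor, had 28.6, 35.2 and 35.0 CPM, and its secreted partner LY96 (MD-2) had 1.35, 0.739 and 1.52 CPM. Because LY96 is short, the pair lay close together per kb, at a ratio of 1.25 with a range of 0.966 to 2.18, while TLR4 exceeded CD14 by 20.2-fold per kb, between 12.6 and 44.6. TLR2 had 6.03, 3.69 and 4.99 CPM. TLR3, TLR7, TLR8 and TLR9, which sense nucleic acids, were not detected. Downstream of the receptors, the adaptor MYD88 had 71.1, 84.0 and 68.4 CPM and the kinase IRAK1 had 564, 572 and 451 CPM. Among the sensors STING1 had 125, 119 and 118 CPM, NLRP3 had 32.8, 32.2 and 39.8 CPM, and PYCARD, the adaptor of inflammasomes, had 74.4, 62.4 and 60.2 CPM.

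Cytokine and chemokine genes were detected in 18 of 34 cases, and 6 were listed at 0, both near the shares of 58.4% and 19.1% over all protein-coding genes. The growth factor VEGFA had 307, 343 and 384 CPM, TGFB1 197, 201 and 151 CPM, the B cell survival factor TNFSF13B 172, 206 and 204 CPM, and CCL5 148, 134 and 130 CPM. CCL5 was the highest per length, at 90.8 CPM per kb. TNF had 2.00, 3.23 and 2.97 CPM, IL1B 1.87, 2.32 and 3.71 CPM and CXCL8 3.32, 5.00 and 4.18 CPM, or 1.63, 0.850 and 1.83 CPM per kb, near the protein-coding median of 1.37. IL6, IL12B, IFNB1, IFNG, IL2 and CSF3 were listed at 0.

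All 6 genes of the phagocyte oxidase, which makes superoxide, were detected, but at levels that fell into separate ranges. NCF4, RAC2 and CYBA lay at 76.9, 75.0 and 55.3 CPM per kb, and CYBB and NCF1 at 6.52 and 4.95 CPM per kb. CYBB, the catalytic chain, had 26.4, 40.9 and 19.2 CPM and varied most, and NCF1 has near-identical pseudogenes, which makes its count uncertain. Cathepsins, the lysosomal proteases, were detected in 10 of 14 cases. CTSD had 2710, 2463 and 2385 CPM and CTSB 613, 607 and 556 CPM, while CTSL had 0.132, 0.275 and 0.0697 CPM. Among kinases and phosphatases of myeloid signalling, detected in 22 of 22 cases, the phosphatase gene PTPN6 had 263, 213 and 210 CPM and the kinase gene SYK 179, 183 and 189 CPM. Complement and coagulation genes were detected in 13 of 20 cases, and the regulator CD46 had 159, 193 and 211 CPM and 21.6 CPM per kb, with libraries that overlapped those of the protease gene PLAU at 19.2 CPM per kb.

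Genes of MHC class I presentation were detected in 12 of 13 cases and those of class II in 8 of 12. B2M had 1194, 1190 and 1045 CPM and HLA-B 542, 551 and 449 CPM. HLA-DRA, the alpha chain of HLA-DR molecules, had 60.0, 17.4 and 54.7 CPM, HLA-DPA1 5.09, 1.77 and 3.30 CPM, CD74 195, 144 and 169 CPM, and the master activator CIITA 28.7, 20.2 and 37.97 CPM. Control replicate 2 was lowest for each of these, and the sum over the list was 387, 239 and 345 CPM. HLA-DRB1 and HLA-DRB5 are close copies that vary between people and haplotypes, so their division is uncertain, and HLA-DOA was listed at 0.

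Metabolic lists were detected almost in full, with 24 of 24 glycolytic genes, 19 of 19 of the tricarboxylic acid cycle, 20 of 20 nuclear respiratory chain genes and 16 of 16 of nucleotide synthesis. Counts of the mitochondrial genome made up 8.88% to 9.10% of a library. MT-CO3 led its 13 protein genes at 17024 ± 872 CPM per kb and MT-ND3 was lowest at 701 ± 25.8 CPM per kb. MT-ND6, the single protein gene on the other strand of that genome, had 826, 662 and 652 CPM. With the strand setting not given, reads from the opposite strand cannot be told apart here. Of the 13 genes, 5 share exon positions with another gene on the same strand, so the division of reads between these is uncertain. GAPDH led glycolysis with 2897, 2713 and 2475 CPM and ENO1 followed with 2362, 2284 and 1926 CPM.

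RNA levels of the isoenzymes of these pathways were unequal. LDHB had 792, 769 and 732 CPM and LDHA, the form favoured in glycolytic tissues, had 384, 434 and 348 CPM, a ratio per kb of 4.10 with a range of 3.69 to 4.38. The size of this ratio depends on the union of exons taken as the length. ENO1 exceeded the neuronal enolase ENO2 by 380-fold per kb and PFKL exceeded the muscle form PFKM by 141-fold. Amino acid and one-carbon genes were detected in 18 of 19 cases. PHGDH, the first step of serine synthesis, had 657, 617 and 559 CPM, PSAT1 had 350, 371 and 345 CPM, and the glutamine carrier SLC1A5 had 600, 591 and 572 CPM. ASS1, which makes argininosuccinate from citrulline, had 322, 299 and 302 CPM. SCD, the stearoyl-CoA desaturase, led the lipid synthesis genes, of which 16 of 17 were detected, with 712, 740 and 729 CPM, while the elongase ELOVL6 had 1.12, 0.594 and 0.446 CPM. In the NADPH list, detected in 10 of 11 cases, the cytosolic malic enzyme ME1 had 0.809, 0.811 and 1.16 CPM and its mitochondrial counterpart ME2 had 149, 171 and 174 CPM.

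Proliferation genes were detected in 27 of 27 cases and genes of cell cycle inhibition in 12 of 12. PCNA, the replication clamp, had 444, 482 and 381 CPM, MCM3 551, 558 and 489 CPM, MKI67 255, 301 and 270 CPM and MYC 200, 256 and 266 CPM. Of the D cyclins CCND3 had 251, 230 and 186 CPM and CCND1 2.65, 2.14 and 2.16 CPM, a ratio of 79.9 per kb with a range of 71.7 to 89.5. CDKN2A had 98.7, 90.6 and 89.6 CPM and CDKN1B 96.2, 106 and 124 CPM. CDKN1A, the gene of a cyclin-dependent kinase inhibitor, had 11.9, 9.46 and 9.64 CPM. BCL2 family genes were detected in 14 of 16 cases, and MCL1, BAK1 and BCL2L1 followed each other at the top per kb with overlapping libraries. MCL1 had 137, 151 and 143 CPM, and BCL2 itself had 26.9, 37.3 and 34.2 CPM.

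**Figure D4:**
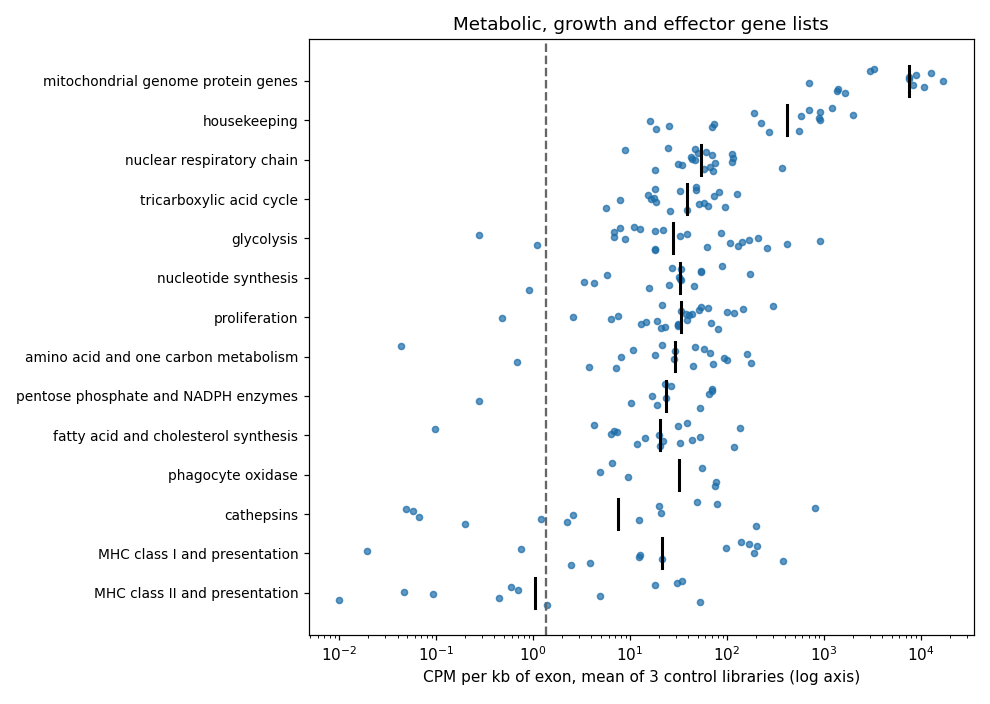
Mean level of each gene in 14 lists in CPM per kb of exon on a log axis, with a black bar at the median of the list and a dashed line at the protein-coding median of 1.37 CPM per kb; values below 0.01 are drawn at 0.01. Lists of metabolism and growth lie above the line at their medians, and MHC class II genes lie around it.

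Outside the mitochondrial genome the highest levels per length belonged to FTL, the ferritin light chain, at 4406 ± 364 CPM per kb, EEF1A1 at 2005 and CTSG at 1921 CPM per kb. RPL10A, the pseudogene MTATP6P1, ACTB, ELANE, RPS2, EEF2, TMSB4X, GLO1 and RPS12 completed the first 12, so 2 azurophil proteases stood among genes of translation and the cytoskeleton. MTATP6P1 is a copy of mitochondrial sequence, and its reads could have been divided with the mitochondrial gene. GLO1, which detoxifies methylglyoxal, was the steadiest of them in relation to its level, at 1131 ± 32.1 CPM per kb. The 50 most abundant genes took 17.9% to 18.8% of a library, and the 84 ribosomal protein genes 6.66% to 7.20%. Among genes annotated as lincRNA, antisense or processed transcript, LINC00926 had a mean of 683 CPM, LINC02470 of 595 CPM and SNHG29 of 593 CPM. Per length the order of these differed, with LINC02470 at 608, LINC00926 at 186 and SNHG29 at 158 CPM per kb.

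Transcripts of other cell types were present at low levels in all 3 libraries, and 13 of 22 epithelial and 14 of 18 T lymphocyte genes were detected. The epithelial share is near the 58.4% of all protein-coding genes, so the count says nothing particular of that list. Summed epithelial levels were 85.7, 86.2 and 66.4 CPM and summed T lymphocyte levels 90.4, 83.1 and 77.7 CPM. The keratins of simple epithelia KRT8, KRT18 and KRT19 had 19.7, 21.7 and 12.7 CPM, 10.8, 10.2 and 5.67 CPM, and 7.53, 9.01 and 3.97 CPM, all lowest in control replicate 3. KRT8 and KRT18 have many named pseudogenes and share exon positions on opposite strands, so their counts are uncertain. MUC1 had 17.005, 11.2 and 12.5 CPM, EPCAM 4.37, 4.13 and 2.80 CPM and CDH1, the epithelial cadherin, 2.74, 3.997 and 4.15 CPM. KRT14, KRT1 and KRT20 were listed at 0. AGR2, a secretory epithelial gene looked up after its value was seen, had 15.7, 20.9 and 18.8 CPM.

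Among T lymphocyte genes the receptor constant genes TRBC2, TRBC1 and TRAC had 8.30, 7.15 and 6.15 CPM, 6.08, 5.68 and 4.92 CPM, and 6.52, 5.43 and 4.61 CPM, and control replicate 3 was lowest for each. TRBC1 and TRBC2 are close copies. CD3E had 3.65, 4.26 and 3.12 CPM, CD5 8.63, 8.70 and 6.83 CPM and the kinase LCK 6.87, 6.52 and 4.60 CPM, whereas CD8A was listed at 0 and CD8B had 0, 0 and 0.0557 CPM. None of 54 TRAV and 69 TRBV segments was detected, though 10 and 24 of them had counts in every library. The summed TRBV level was 7.88, 6.75 and 6.35 CPM, and the highest segment, TRBV9, held 11.6% of the summed TRBV mean. Of 14 TRGV segments 3 were detected, and the gamma chain constant gene TRGC1 had 12.2, 14.3 and 11.998 CPM; segments and TRGC1 were looked up after the T cell values were seen.

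B lymphocyte genes were detected in 4 of 15 cases, with TNFRSF13C at 19.5, 15.2 and 16.9 CPM. The B cell surface gene MS4A1 (CD20) had 0, 0 and 0.0557 CPM, IGHM was at 0.162 CPM or lower, IGLC2, JCHAIN and VPREB1 were listed at 0, and none of 112 IGHV segments had counts in every library. NK cell genes were detected in 5 of 13 cases, and NKG7, a granule membrane gene, had 123, 118 and 114 CPM, far above the next member per kb, while NCR1 was listed at 0. Genes of erythroid cells were detected in 0 of 12 cases, with all 7 globin genes listed at 0, and platelet genes in 2 of 9, endothelial genes in 2 of 10, fibroblast genes in 5 of 13 and neural or liver genes in 4 of 12. PF4, PPBP, CDH5, KDR, COL1A2, COL3A1, ALB and TTR were listed at 0. The neural and liver list still summed to 140, 150 and 151 CPM in control replicates 1, 2 and 3. Of its members 2 reached 5 CPM in every control library. Whether the epithelial and lymphocyte counts are transcripts of U937 cells or foreign reads was not tested.

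**Figure D5:**
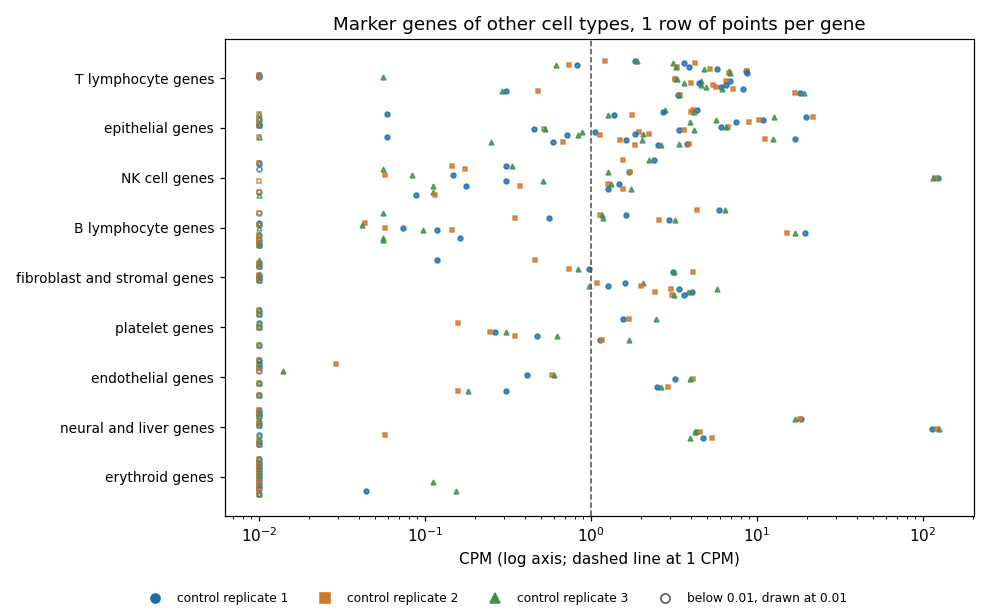
Levels of marker genes of 9 other cell types in CPM on a log axis, with 1 row of points per gene, 1 point for each control library, open points for values below 0.01 and a dashed line at 1 CPM. Most T lymphocyte and many epithelial genes lie between 1 and 22 CPM, and no erythroid gene reaches 1 CPM.

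Most of the large gene families of other tissues that were looked up were largely without counts. Of 381 olfactory receptor genes 345 were listed at 0, as were 84 of 94 keratin-associated protein genes, 37 of 39 beta-defensins, 11 of 13 interferon alpha genes and 19 of 19 late cornified envelope genes. Among 55 keratin genes 35 were listed at 0 and 5 were detected. Bitter taste receptors had 12 of 24 genes listed at 0 and 1 detected. These shares lie above the 19.1% of all protein-coding genes listed at 0.

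Replicates differed little for most genes. Among 11090 genes with a mean of at least 5 CPM the median ratio of highest to lowest library was 1.16, and 101 genes (0.911%) exceeded 2. Of the 10 largest ratios 9 belonged to genes whose exons overlap another gene on the same strand or that the annotation lacks, such as ISY1-RAB43 with 19.4, 11.1 and 0 CPM. The exception was FAM220A with 0.0588, 13.5 and 14.7 CPM. The share over 2 was 2.50% of 2003 genes with such an overlap and 0.487% of 9039 genes without it. Control replicate 3 stood apart in the signal recognition particle RNAs RN7SL1 (3.40, 1.98 and 10.7 CPM) and RN7SL2 (3.77, 1.48 and 13.4 CPM), in RN7SK (0.574, 0.681 and 2.63 CPM) and in EGR1. It was also lowest for 16 of 16 housekeeping genes, and the part of these differences in the results above was not tested.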

How the data were processed

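Per the labels' protocols, RNA of U937 cells was taken up in TRIzol and made into libraries with a SMARTER mRNA-seq kit. Tools listed without role or order in the submitters' processing notes are HISAT2, fastp, edgeR and StringTie 1.3.4d, with the build GRCh38. The authors deposited whole-number counts for 61806 Ensembl gene IDs, not scaled between libraries. How reads were counted, on which strand and with which annotation is not given in the sources used here. Genes with a count of 4 were over-represented (1306 to 1332 in a control library, against 651 to 750 with a count of 3 and 412 to 466 with a count of 5), so the precision that the totals would give is an upper limit, and floors cover counting error only.

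Libraries were grouped by treatment label, and gene names matched for 61757 IDs. CPM were computed from the deposited counts with edgeR 4.0.16 (R 4.3.3, limma 3.58.1): TMM over all 6 libraries on genes passing filterByExpr (minimum count 10, minimum total 15). CPM per kb divides by the union of exons in GENCODE 29, for 58254 genes. Orders of genes rest on whether the ranges of the 3 libraries overlap. Tables and figures used Python 3.11.15 with pandas 2.3.3 and matplotlib 3.10.9. The level computation was tested on simulated data. Promoters came from RefSeq on GRCh38.p14.

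Genes named were the 7 markers and, in each of 51 lists, the 4 highest per kb, the 2 lowest detected and any listed at 0, besides the most abundant and most variable genes. Further members of the lists of receptors and factors were named for their role, as were members of other lists outside the rule, and gene pairs set side by side were chosen after their values were seen. Members and lists were chosen with earlier results of these data known. Alternatives were other scalings, other levels for detection, transcript length and leaving out each library. The counts of the lists include some members whose own values are not reported here.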

Additional observations from a re-analysis of the deposited data

How the results depend on the processing

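The counts of detected IDs, protein-coding genes and list members in all stayed within 1.5 times their value under every alternative tried. Without 1 control replicate each, 13677 to 13798 IDs, 11656 to 11714 protein-coding genes and 600 to 603 list members were detected, the mitochondrial share was 8.96% to 9.07%, and the 50 most abundant genes took 18.1% to 18.5%. At 5 CPM these counts were 10808, 10079 and 482, and at 0.5 CPM they were 14992, 12214 and 629. The mitochondrial share was 8.01% over protein-coding genes only, against 9.01% over all, since that alternative leaves out the mitochondrial ribosomal and transfer RNAs. At 5 CPM 14 of 51 list counts moved by over 1.5 times, among them epithelial genes (4 in place of 13), T lymphocyte genes (4 in place of 14), factors of other lineages (2 in place of 10), cytokines (9 in place of 18) and fibroblast genes (0 in place of 5). With detection in 2 of the 3 libraries, histone genes gave 4 in place of 2, and the other 50 lists stayed within that limit. Of 765 gene levels, 421 moved by over 1 SD when mitochondrial counts left the totals, 30 with total counts alone and 31 with TMM over the control libraries. With the longest transcript as the length, 474 of 764 levels per kb moved by over 1 SD, the most of any setting. They grew by a median of 1.27 times and at most 3.80 times, and 64 of 764 by over 2 times. The orders and ratios per kb above use the union of exons and depend on that choice. Depth limits statements on genes near 0.0440 CPM, where a few counts decide. No paired analysis was possible because the values come from 1 group and no test.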
